A study of Mus musculus with 6 samples.

Results

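Splicing regulators are RNA-binding proteins that decide which exons of a pre-mRNA are joined. The genes described here encode the SR proteins, the heterogeneous nuclear ribonucleoproteins (hnRNPs) and the factors enriched in neurons. They were taken from the deposited table of prefrontal cortex expression by name. A gene was included when its normalized counts averaged 10 or more over the 6 samples, it was annotated as protein coding, and it had a GENCODE M21 symbol beginning with Srsf, Hnrnp, Rbfox, Celf, Elavl, Mbnl or Khdrbs, or was 1 of the 9 genes Nova1, Nova2, Ptbp1, Ptbp2, Ptbp3, Tra2a, Tra2b, Srrm2 and Srrm4. This gave 59 genes of the 14969 with such a mean. The annotation holds 59 protein-coding genes with these names, so every one passed the minimum. The lowest was Mbnl3, with a mean of 42.6. They comprise 11 SR proteins, 4 SR-related genes, 20 hnRNP genes, 3 PTB genes, 3 Rbfox genes, 2 Nova genes, 6 Celf genes, 4 Elavl genes, 3 Mbnl genes and 3 Khdrbs genes.

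The tissue was prefrontal cortex, taken at postnatal day 28 from mice of the C57BL/6J strain. There were 3 wild-type (WT) samples and 3 titled Hetero, whose genotype is given as Cyfip2 mutant. Poly(A) RNA was sequenced from stranded libraries. The labels do not say which part of Cyfip2 is mutated, nor whether each sample is a separate animal or a pool. What the p-values measure is therefore sample-to-sample spread only, part of which may be technical.

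SR proteins carry RNA recognition motifs and a domain rich in arginine and serine, and mostly promote the use of exons they bind. hnRNPs more often repress exons or compete for the same RNA. In neurons, the Rbfox, Nova, Celf, Elavl, Mbnl and Khdrbs families and Srrm4 set the exon choices of ion channels, receptors, adhesion molecules and cytoskeletal genes. Of the PTB proteins, Ptbp1 holds many of those neuronal exons back in other cells. Many of these genes limit their own output by including an exon with a stop codon, whose transcript is then removed by nonsense-mediated decay.

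Such exons matter here because the table gives 1 value per gene, which may pool productive and unproductive transcripts. Exon choice itself was not measured. In GENCODE M21, 31 of the 59 genes (52.5%) had at least 1 transcript annotated for nonsense-mediated decay, against 27.1% of the 14560 tested protein-coding genes. The SR proteins had 9 such genes of 11, the SR-related genes 4 of 4 and the PTB genes 3 of 3, while the Rbfox, Nova, Elavl and Mbnl families had 0. A separate exon absent from every coding transcript of its gene, in which the decay transcript reaches its stop codon, was annotated for 9 of the 59 genes (15.3%), against 6.2% of tested protein-coding genes. How completely transcripts are annotated differs between genes: the 59 had a median of 8 annotated transcripts and all tested protein-coding genes 5.

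The 12 exon forms found in those 9 genes were 70 to 460 bases long. For Tra2b they include forms of 397 and 276 bases that share their first base and stop codon. The stretches below, from pairs of related genes, show how soon each reading frame ends. They run from the first base of the exon to the stop codon, 5′ to 3′, with the stop codon in capitals, and were read from the GENCODE M21 transcript sequences (GRCm38).
Srsf3, chr17:29039454-29039487, plus strand: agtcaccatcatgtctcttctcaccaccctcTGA
Srsf7, chr17:80205054-80205081, minus strand: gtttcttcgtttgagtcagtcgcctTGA
Tra2a, chr6:49252965-49253108, minus strand: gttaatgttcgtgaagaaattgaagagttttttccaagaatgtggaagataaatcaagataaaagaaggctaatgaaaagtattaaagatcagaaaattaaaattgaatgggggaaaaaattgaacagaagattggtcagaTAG
Tra2b, chr16:22259181-22259261, minus strand: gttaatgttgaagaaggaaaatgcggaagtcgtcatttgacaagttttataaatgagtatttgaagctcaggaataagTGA
Hnrnpl, chr7:28817335-28817393, plus strand: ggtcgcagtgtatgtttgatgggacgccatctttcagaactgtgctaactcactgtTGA
Hnrnpll, chr17:80044976-80045022, minus strand: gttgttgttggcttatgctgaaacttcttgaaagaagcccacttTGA
In Srsf3 the stop came after 31 bases of a 456-base exon, and in Srsf7 after 25 bases of a 460-base exon. The Tra2a and Tra2b exons share their first 9 bases, and their stretches are rich in A and T (29.2% and 33.3% G or C).

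The libraries had been scaled to each other, and their column totals lay between 29879143 and 30735443. The spacing of low values put the depth at about 25500000 to 43900000 reads, with the highest estimate in Hetero sample 3. The step behind the estimate divided only 15.3% of values under 60 in Hetero sample 3 and 23.3% to 27.9% elsewhere. Depth and its order are therefore approximate. The targeted gene, Cyfip2, read 31933, 30496 and 27503 in WT and 20959, 21237 and 18285 in Hetero. Markers of cortical excitatory neurons were present at summed counts of 175349 to 195161 in each library, and those of cerebellar granule cells and choroid plexus were low. By group, summed choroid plexus markers were 60.1 to 80.5 in WT and 100 to 122 in Hetero (3 of 3 tested fitted higher), and cerebellar granule cell markers 214 to 288 and 264 to 345 (2 of 2). Markers of oligodendrocyte precursors summed to 6419 to 7403 in WT and 5376 to 6022 in Hetero, with 5 of 5 fitted lower, a median log2 change of -0.25 and 4 at an unadjusted p below 0.05. Microglia markers summed to 8915 to 9848 and 8321 to 9107, with 6 of 6 fitted lower. In each of these lists 0 markers had a limma adjusted p below 0.05, and their part in the values of the splicing regulators was not tested. In Hetero sample 3 the log2 deviation of a gene from its mean over the 6 samples was lower for longer transcripts (Pearson r = -0.29 across the 14560 tested protein-coding genes, a description of this library), where the other libraries lay between -0.04 and 0.13.

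The splicing regulators were abundant transcripts. Of the 59 genes, 53 had a mean normalized count above 1000 and 18 above 5000. The largest value belonged to Srrm2, the scaffold protein of nuclear speckles, with 25519, 26588 and 29257 in WT and 27612, 26434 and 25653 in Hetero. At the other end stood Khdrbs2, with a mean near 134, and Mbnl3. Per kilobase of the longest principal transcript, the median of the 59 was 893, against 222 for all tested protein-coding genes, and 52 of the 59 lay above that median. By class total per kilobase, the 20 hnRNP genes made up 38.9% of the 59-gene sum and the SR proteins 16.6%, with the Celf genes just below the SR proteins.

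**Figure D1:**
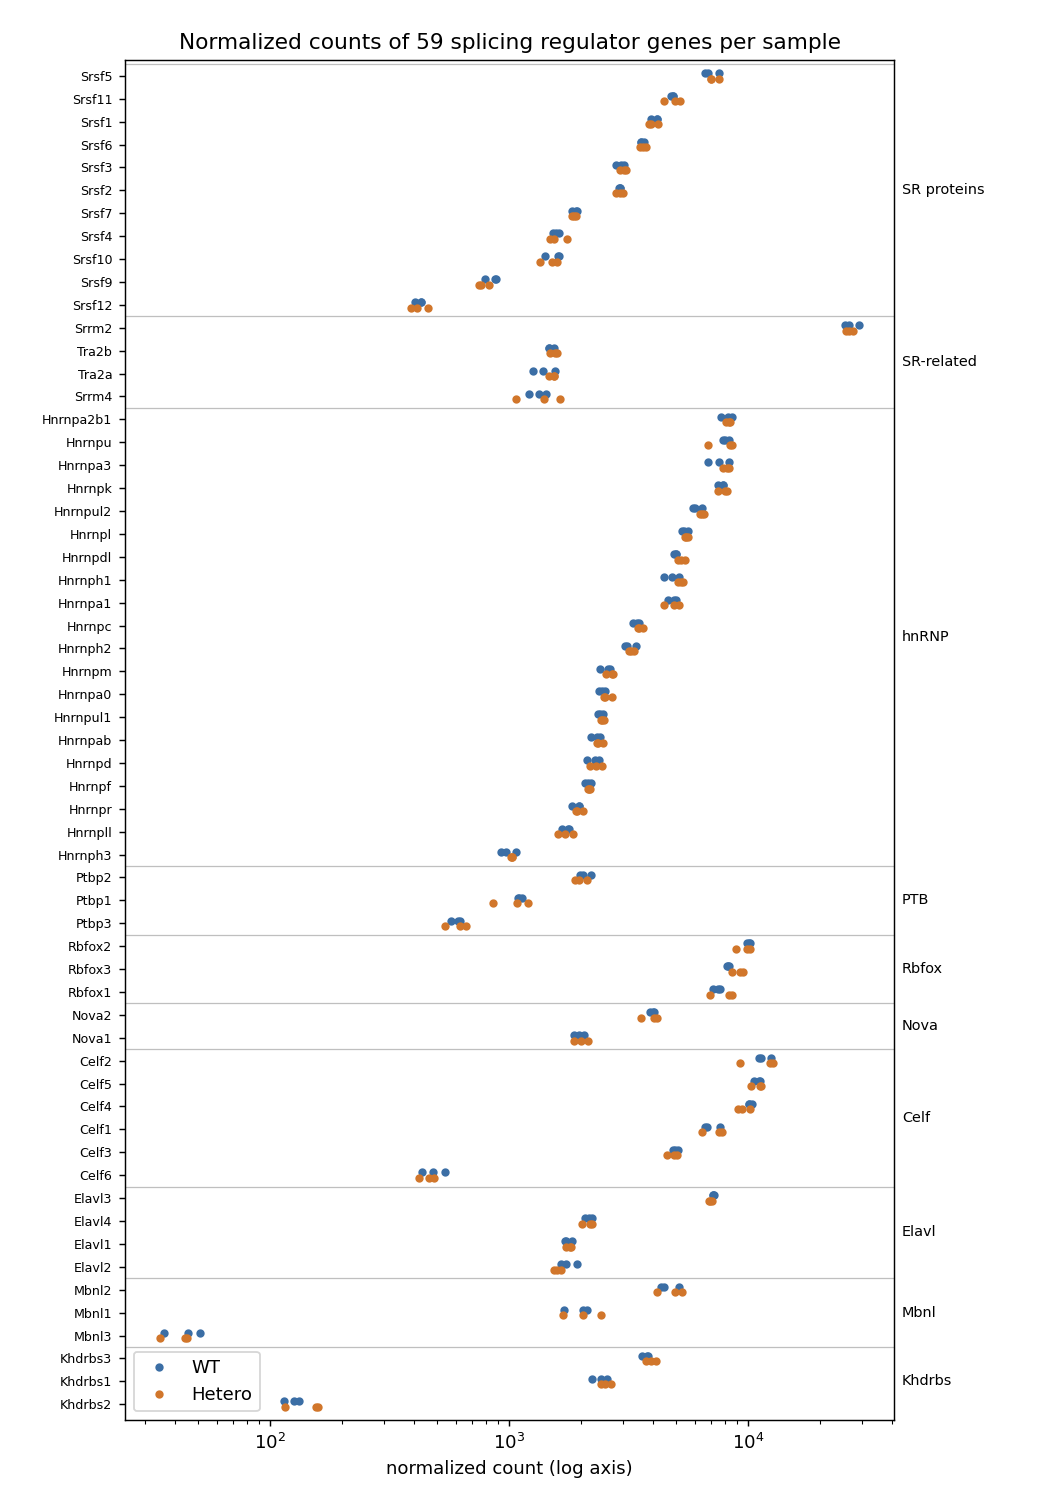
Normalized counts (x axis, log scale) of the 59 genes in 3 WT (blue) and 3 Hetero (orange) samples; each point is a sample, and genes are ordered by mean within their class. Srrm2 lies at or above 25519 in every sample and Mbnl3 between 34.5 and 50.7, and the points of a gene lie close together beside the distances between genes.

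Levels within families were uneven, and are compared per kilobase. Among SR proteins, Srsf5 was highest at 4514 per kilobase (4224 to 4819 over the samples), with Srsf11 at 1560 (1439 to 1671) and Srsf2 at 1528 (1470 to 1585), whose ranges overlap. With the median length of the coding transcripts in place of the longest principal one, Srsf2 read 1799, Srsf6 1793 and Srsf11 1683, so no order is given among these after Srsf5. Srsf12, an SR protein of restricted expression, was lowest at 143 (133 to 155). Srsf3, the smallest member of the family, stood at 1131 (1074 to 1173). Among hnRNPs the top positions belonged to Hnrnpa2b1 at 4943 per kilobase (4638 to 5132) and Hnrnpa3 at 4740 (4116 to 5044), whose ranges also overlap, then Hnrnpk at 2920 (2791 to 3045) and Hnrnpa1 at 2523 (2322 to 2689). The level per kilobase depends on the transcript taken. With that other length, 10 of the 59 genes moved by more than 5 ranks, namely Srsf1, Srsf3, Srsf6, Hnrnpa0, Hnrnpd, Hnrnph2, Hnrnpm, Hnrnpr, Hnrnpu and Rbfox2. A length correction may also already be part of the deposited values, which could not be settled from them, and a level per kilobase would then correct for length again. Rbfox2 read 1432 per kilobase with the first length and 5604 with the second, so no order is given for the Rbfox genes.

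In the Mbnl, Khdrbs, Nova, Elavl and PTB families the same paralog had the largest share in all 6 samples, and on average under either length. In the Rbfox family the leading gene depended on the length taken, so no shares are given. In the Celf family Celf2 had the largest mean share under either length, but its lead depended on the length. With the first length Celf2 made up 38.6% and Celf4 19.8% of the Celf sum in WT. With the other length they averaged 28.3% and 28.2% over the 6 samples, which is nearly the same. Mbnl2 made up 73.6% ± 1.3 (SD, n = 3) of the Mbnl sum per kilobase in WT and 73.5% ± 1.3 (SD, n = 3) in Hetero, and Mbnl3 1.43% ± 0.31 in WT. Khdrbs3, which encodes SLM2, a regulator of neurexin exons, made up 73.9% ± 0.76 in WT and 73.7% ± 1.9 in Hetero, and Khdrbs2, which encodes SLM1, 2.03% ± 0.093 and 2.23% ± 0.41. Nova2 made up 63.4% ± 0.65 of the Nova sum in WT and 62.5% ± 0.74 in Hetero. Among the Hu protein genes, the neuronal Elavl3 made up 52.6% ± 0.73 in WT and 52.8% ± 0.85 in Hetero, and Elavl1, the widely expressed member, 11.3% ± 0.48 and 11.8% ± 0.41. Ptbp2, the PTB protein of neurons, made up 53.7% ± 1.4 and 53.6% ± 2.7, and Ptbp1, the form of non-neuronal cells, 31.0% ± 1.4 and 30.3% ± 4.3. In bulk tissue a lower value may mean fewer cells of a type or less RNA per cell, which cannot be told apart.

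The study's comparison is Hetero against WT. With limma, 0 of the 59 genes had an adjusted p below 0.05, as was so for 0% of all tested genes. Cyfip2, the targeted gene, missed this threshold as well. Its limma adjusted p was 0.31, although it fell by 0.57 in log2 units (log2 change -0.57, SE 0.07) and its groups did not overlap. A count of 0 at this threshold therefore says little by itself, and the intervals of the changes are given below. Before adjustment 1 of the 59, Rbfox3, had a p below 0.05, which is 1.69% of them against a background of 3.83% (1.66% higher in Hetero and 2.17% lower). The 3 Hetero values lay entirely above the 3 WT values for Rbfox3 and Hnrnpdl, against 4.4% of all tested genes, and entirely below for Elavl3, against 4.32%. In both directions that is 5.08% of the 59 against 8.72%. The fitted log2 changes ran from -0.14 (Elavl2) to 0.20 (Khdrbs2), with 37 above 0 and 22 below. The median was 0.02 beside -0.0019 over all tested genes, of which 49.1% lay above 0.

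The intervals of the changes were mostly narrow. The 95% interval stayed within 1.2-fold either way for 45 of the 59 genes (76.3%) and within 1.5-fold for 59. Among all tested genes, 42% stayed within 1.2-fold and 80.9% within 1.5-fold. The median standard error was 0.063 for the 59 and 0.097 over all tested genes, whose median count was lower (651 against 2901). The 14 genes whose intervals reached past 1.2-fold were Srsf9, Tra2a, Srrm4, Hnrnph1, Hnrnpa3, Ptbp1, Rbfox1, Celf2, Celf6, Elavl2, the 3 Mbnl genes and Khdrbs2. For Mbnl3 the interval of the ratio of Hetero to WT ran from 0.667 to 1.32, and for Khdrbs2 from 0.897 to 1.47.

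**Figure D2:**
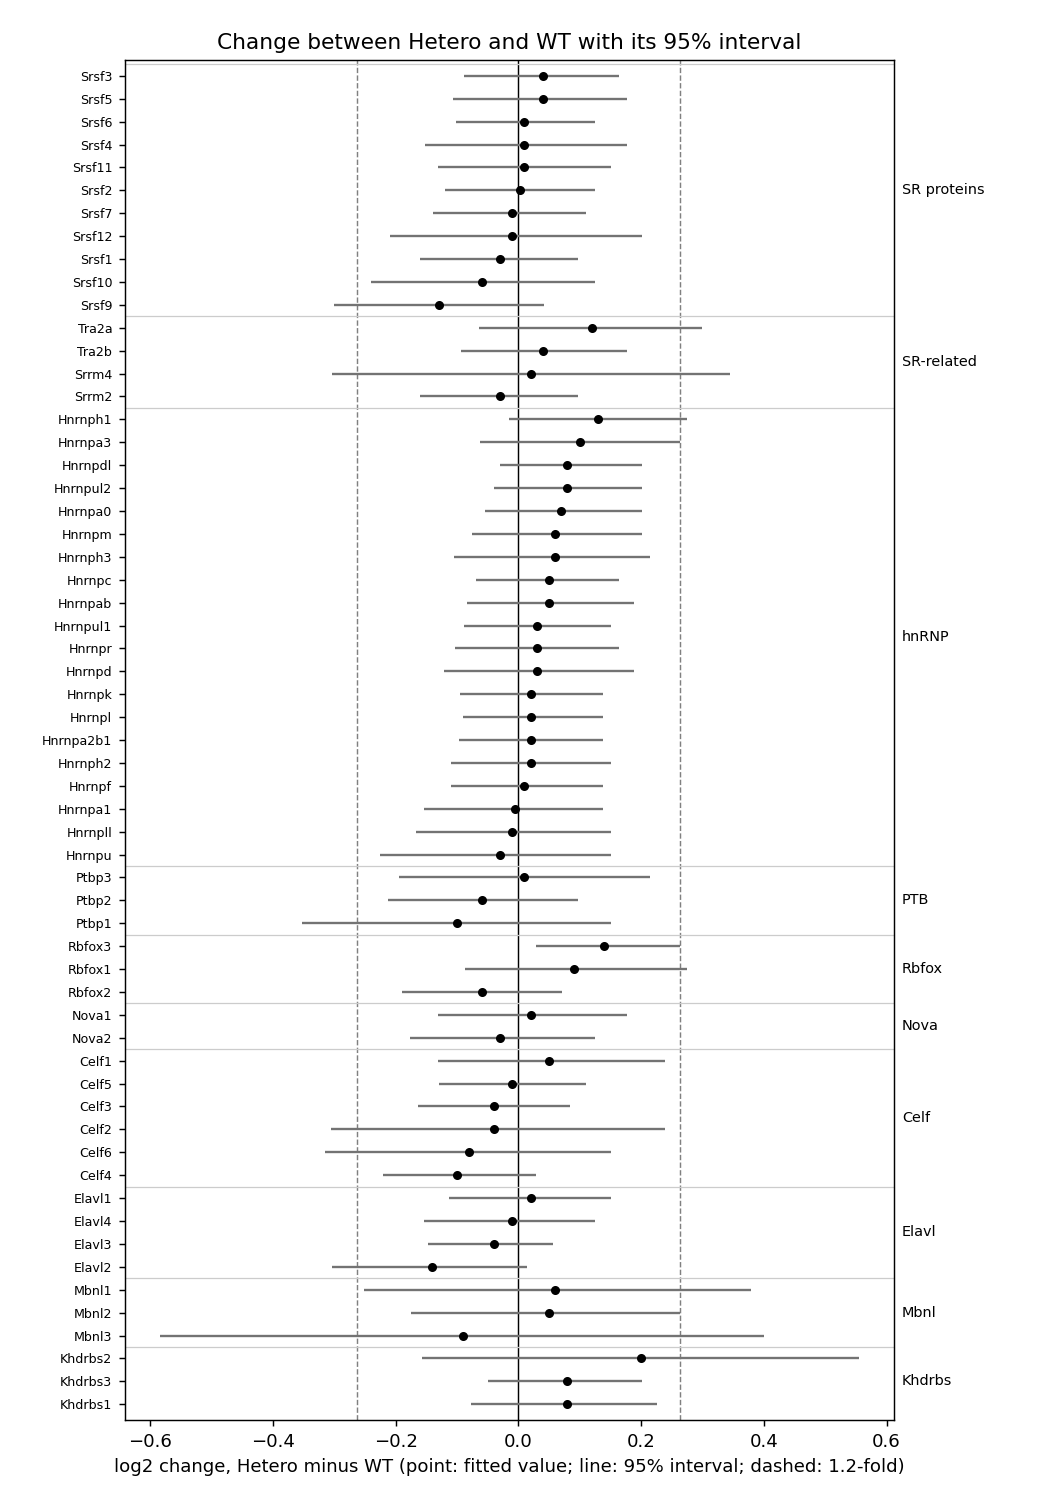
Log2 change of Hetero against WT (x axis) for the 59 genes by class; points are fitted values, lines their 95% intervals from limma, and dashed lines mark 1.2-fold. The interval of Rbfox3 alone lies off 0, and those of 45 genes lie between the dashed lines.

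The SR proteins had the smallest median size of change of the 10 classes, 0.013. Their fitted changes ran from -0.13 to 0.04, 6 above 0 and 5 below, with a median of 0.0023, and 10 of the 11 intervals lay within 1.2-fold. Srsf2, a regulator of exon inclusion that also acts in transcription, read 2900, 2887 and 2908 in WT and 3010, 2911 and 2792 in Hetero. The WT values differed by less than those of Hetero and lay inside their range, and the interval of the ratio was 0.921 to 1.09. Srsf5 read 6815, 6624 and 7539 in WT and 7557, 6968 and 6966 in Hetero, with a log2 change of 0.04 ± 0.06 (SE). Its highest WT and highest Hetero samples nearly coincide.

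Srsf9, a short relative of Srsf1, had the smallest p of the SR proteins. It read 795, 874 and 880 in WT and 761, 745 and 824 in Hetero, and the groups overlapped through Hetero sample 3 and WT sample 1. The log2 change was -0.13 ± 0.08 (SE), with a limma unadjusted p of 0.13 and an adjusted p of 1. Srsf10, which acts as a repressor when dephosphorylated, read 1610, 1601 and 1412 in WT and 1518, 1589 and 1345 in Hetero, so sample 3 was the lowest of both groups. The SR proteins with annotated unproductive exons printed above had ratios near 1, with intervals of 0.941 to 1.12 for Srsf3 and 0.908 to 1.08 for Srsf7.

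Of the SR-related genes, Tra2a and Tra2b bind purine-rich exonic enhancers, Srrm2 organises nuclear speckles, and Srrm4 promotes neuronal microexons. Tra2a read 1390, 1553 and 1256 in WT and 1462, 1540 and 1545 in Hetero, a log2 change of 0.12 ± 0.08 (SE), with WT sample 3 the lowest and the groups overlapping. Without WT sample 3 the change was 0.04. Tra2b read 1475, 1469 and 1545 in WT and 1478, 1583 and 1562 in Hetero. Srrm4 varied most within a group: its Hetero samples read 1629, 1402 and 1064, on both sides of the WT values of 1338, 1430 and 1212. Its interval, 0.81 to 1.27, was wide for that reason. Its log2 change of 0.02 became -0.12 without Hetero sample 1, and Hetero sample 3 was the lowest of the 6. Srrm2 had a log2 change of -0.03 ± 0.06 (SE).

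Among the hnRNP genes 17 of 20 had a fitted value above 0, where 49.1% of all tested genes did, with a median of 0.03 and a range of -0.03 to 0.13. Of the 20 intervals 18 lay within 1.2-fold, and 0 of 20 had an unadjusted p under 0.05. The count rested on few libraries: it was 13 of 20 without WT sample 3 and 20 of 20 without Hetero sample 3. The mean deviation of the 20 genes was -0.065 in WT sample 3, against 0.011 and -0.009 in the other WT samples and -0.005 to 0.047 in Hetero. WT sample 3 also held the highest summed count of oligodendrocyte markers (143152, against 88533 and 109504 in the other WT samples and 93882 to 122529 in Hetero), from 6 of 6 listed markers, none of them at 0. The part of those cells in the hnRNP values was not tested.

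Hnrnph1, which binds runs of G, read 5156, 4795 and 4430 in WT and 5093, 5363 and 5222 in Hetero. WT sample 1 lay above Hetero sample 1, so the groups overlapped. The log2 change was 0.13 ± 0.06 (SE), with a limma unadjusted p of 0.076 (1 after adjustment). Leaving out WT sample 3 gave 0.07. Hnrnpdl, a relative of the AU-rich-element protein AUF1, read 4975, 4890 and 4976 in WT and 5069, 5432 and 5241 in Hetero. Its groups did not overlap, by a gap of less than the Hetero SD of 181, and the limma unadjusted p was 0.13. Hnrnpa2b1, which also carries mRNA into dendrites, read 8530, 8218 and 7708 in WT and 8430, 8324 and 8079 in Hetero. These ranges overlap almost wholly, and the interval of the ratio was 0.935 to 1.10.

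Hnrnpu, a large nuclear matrix protein, had a fitted value below 0 (-0.03), as had Hnrnpll and Hnrnpa1. It read 7887, 8297 and 7999 in WT and 8395, 8561 and 6777 in Hetero. Both other Hetero samples exceeded every WT sample, and Hetero sample 3 lay below them all.

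The PTB genes gave no difference beyond the spread. Ptbp1 read 1093, 1103 and 1134 in WT and 854, 1084 and 1196 in Hetero, so Hetero held both the lowest and the highest sample. The log2 change was -0.10 ± 0.11 (SE), and it was 0.04 without Hetero sample 1. Ptbp2 read 2210, 1989 and 2032 in WT and 1968, 2127 and 1890 in Hetero, a log2 change of -0.06 ± 0.07 (SE), which ran from -0.11 without Hetero sample 2 to -0.01 without WT sample 1. Ptbp3 differed by 0.01.

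The Rbfox proteins bind UGCAUG beside alternative exons and are hallmarks of neurons. Rbfox3, whose product is the neuronal marker NeuN (chromosome 11, 118489762 to 118911597, minus strand, GRCm38), read 8173, 8294 and 8277 in WT and 9550, 9222 and 8584 in Hetero. All Hetero samples lay above all WT samples, which differed little from each other (8248 ± 65.5, SD, n = 3, against 9119 ± 491, SD, n = 3). The log2 change was 0.14 ± 0.05 (SE), a ratio whose 95% interval began at 1.02, a limma unadjusted p of 0.024 and an adjusted p of 1. The unadjusted p was 0.064 without the intensity trend and robust fitting, between 0.053 and 0.11 when any 1 sample other than Hetero sample 3 was left out, and 0.0023 without Hetero sample 3 (adjusted p 0.79).

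Neuronal markers are given beside Rbfox3. The summed count of 6 pan-neuronal markers, none at 0, was 196231 to 208941 in WT and 193242 to 209060 in Hetero, with 2 of 6 fitted above 0. Cortical excitatory markers summed to 187627 to 195161 in WT and 175349 to 182080 in Hetero (2 of 5 fitted above 0). Inhibitory markers summed to 19677 to 21422 in WT and 21040 to 22231 in Hetero (5 of 6). Camk2a and Slc17a7, the largest counts of the excitatory list, were lower in Hetero (limma unadjusted p 0.028 and 0.049). Pvalb of the inhibitory list was higher (limma unadjusted p 0.012). In each of the 3 lists 0 markers had a limma adjusted p below 0.05. No marker of these 3 lists was at 0, and their part in the Rbfox3 value was not tested.

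Rbfox1, the largest of these genes by genomic span (chromosome 16, 5885355 to 7411526), read 7609, 7511 and 7120 in WT and 8351, 8530 and 6921 in Hetero. Both other Hetero samples exceeded every WT sample, while Hetero sample 3 was the lowest of all. The log2 change was 0.09 ± 0.08 (SE) over all samples and 0.19 ± 0.05 (SE) without Hetero sample 3, where the limma unadjusted p was 0.0039 and the adjusted p 0.87. Rbfox2 (chromosome 15, 77078990 to 77307004), a member also found outside neurons, read 10125, 10233 and 9881 in WT and 10230, 9942 and 8934 in Hetero. Its log2 change was -0.06 ± 0.06 (SE) and 0.0009 without Hetero sample 3.

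**Figure D3:**
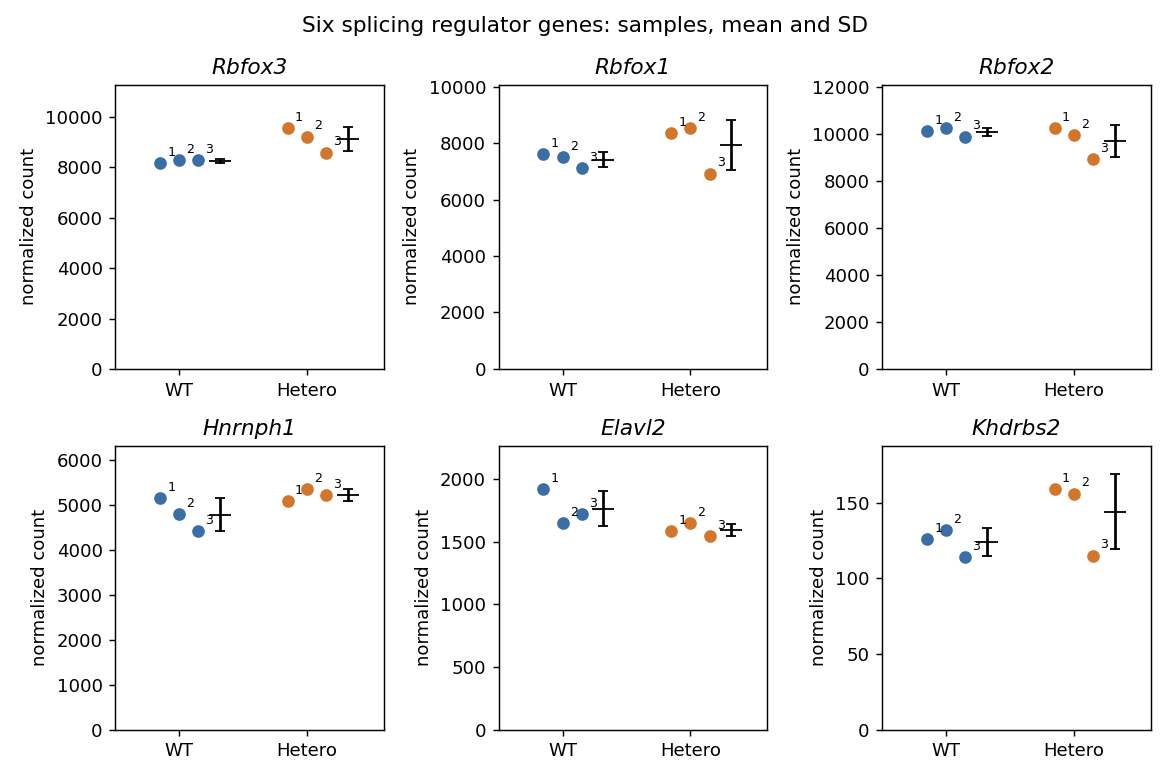
Normalized counts (y axis, from 0) of 6 genes in WT and Hetero; numbered points are the samples, and the bar beside them is the mean ± SD. Rbfox3 is the 1 panel without overlap, while Hetero sample 3 lies below the other Hetero samples for Rbfox3, Rbfox1, Rbfox2, Elavl2 and Khdrbs2.

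Nova proteins bind clusters of the core CA in synaptic pre-mRNAs. Nova1 read 2061, 1961 and 1876 in WT and 1996, 2146 and 1864 in Hetero, and Nova2 read 4044, 3998 and 3884 in WT and 4039, 4149 and 3549 in Hetero. The groups overlapped for both, with intervals of the ratio of 0.913 to 1.13 and 0.885 to 1.09.

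Celf proteins bind GU-rich elements and often oppose Mbnl proteins. Of the 6 Celf genes 5 had a fitted value below 0, with a median of -0.04, and 3 of 6 did so without Hetero sample 3. Celf4, a neuronal member with a high level in cortex, read 10434, 10090 and 10067 in WT and 10206, 9403 and 9061 in Hetero. Hetero sample 1 lay within the WT range and the other Hetero samples below it, and the log2 change was -0.10 ± 0.06 (SE, limma unadjusted p 0.12). It was -0.14 without Hetero sample 1 (unadjusted p 0.037, adjusted p 1) and -0.06 without Hetero sample 3. Celf2, the most abundant of the family by normalized count, read 12533, 11341 and 11113 in WT and 12754, 12417 and 9257 in Hetero. Its log2 change of -0.04 became 0.11 without Hetero sample 3. Celf6 read 481, 431 and 537 in WT and 486, 419 and 461 in Hetero.

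The Elavl genes encode the Hu proteins, which bind U-rich and AU-rich RNA and act on splicing and mRNA stability. Elavl2 read 1922, 1648 and 1724 in WT and 1587, 1649 and 1547 in Hetero. WT sample 2 and Hetero sample 2 all but met, and WT sample 1 was the highest. The log2 change was -0.14 ± 0.07 (SE), with a limma unadjusted p of 0.072 (1 after adjustment). Leaving out WT sample 1 gave -0.08. Elavl3 read 7219, 7131 and 7124 in WT and 7056, 6853 and 6918 in Hetero, without overlap. The difference was small in size, a log2 change of -0.04 ± 0.05 (SE) with a ratio interval of 0.903 to 1.04. Elavl4 and Elavl1 had log2 changes of -0.01 and 0.02.

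Mbnl proteins drive the switch from fetal to adult exons and are sequestered in myotonic dystrophy. Mbnl1 read 2116, 2043 and 1694 in WT and 2044, 2433 and 1675 in Hetero, and Mbnl2 read 5152, 4441 and 4305 in WT and 4943, 5276 and 4164 in Hetero. In both genes sample 3 was the lowest of its group. The log2 changes were 0.06 ± 0.14 and 0.05 ± 0.10 (SE), and both were below 0 without WT sample 3 or without Hetero sample 2.

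The Khdrbs genes encode the STAR proteins Sam68, SLM1 and SLM2. All 3 had fitted values above 0 and overlapping groups. Khdrbs2 read 126, 132 and 114 in WT and 159, 156 and 115 in Hetero, a log2 change of 0.20 ± 0.16 (SE). Hetero sample 3 lay among the WT values, and without it the change was 0.35 ± 0.15 (SE), with a limma unadjusted p of 0.04 and an adjusted p of 0.93. Khdrbs3 read 3806, 3780 and 3601 in WT and 3935, 3756 and 4103 in Hetero, a log2 change of 0.08 ± 0.06 (SE), and 0.04 without Hetero sample 3.

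Ratios between related genes were compared over 10 pairs with an exact two-sided permutation test of the log2 ratio, for which 3 against 3 samples cannot give a p under 0.1. The ratio of Rbfox1 to Rbfox2 counts was 0.752, 0.734 and 0.721 in WT and 0.816, 0.858 and 0.775 in Hetero, all Hetero samples above all WT samples. The log2 ratio differed by 0.15 (exact permutation p = 0.1, adjusted over the 10 ratios p = 0.78). The other 9 ratios overlapped between the groups, with exact permutation p of 0.2 to 0.9. Of these, Nova2 to Nova1 differed by -0.05, Ptbp2 to Ptbp1 by 0.04 with an SD of 0.27 in Hetero, and Mbnl2 to Mbnl1 by -0.02. Elavl4 to Elavl3, Hnrnpa1 to Hnrnpa2b1, Rbfox3 to Rbfox1, Tra2a to Tra2b, Srsf1 to Srsf9 and Khdrbs2 to Khdrbs3 differed by -0.03 to 0.12. The difference for Khdrbs2 to Khdrbs3 was 0.31 without Hetero sample 3 and 0.02 without Hetero sample 2, and that for Srsf1 to Srsf9 0.16 and 0.03.

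The largest departures among the 59 genes lay in single libraries, and not all in the same library. Hetero sample 3 was the lowest of the 6 samples for 25 of the 59 genes (42.4%), against 23.1% of tested protein-coding genes, and WT sample 3 for 17 (28.8%, against 17.2%). Hetero sample 2 was the highest for 20 (33.9%, against 15.6%). The mean deviation of the 59 genes was 0.020, -0.007 and -0.036 in WT and 0.026, 0.045 and -0.048 in Hetero, so the third sample was the lowest of each group and the groups overlapped. In Hetero sample 3 the deepest values were those of Srrm4 (-0.33), Celf2 (-0.31), Mbnl1 (-0.24) and Hnrnpu (-0.23), and the highest those of Ptbp1 (0.16) and Srsf4 (0.14). Values of like size lay in other libraries. They include Ptbp1 (-0.33) and Srrm4 (0.29) in Hetero sample 1, Mbnl1 (0.29) in Hetero sample 2 and Mbnl3 (0.26) in WT sample 3.

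**Figure D4:**
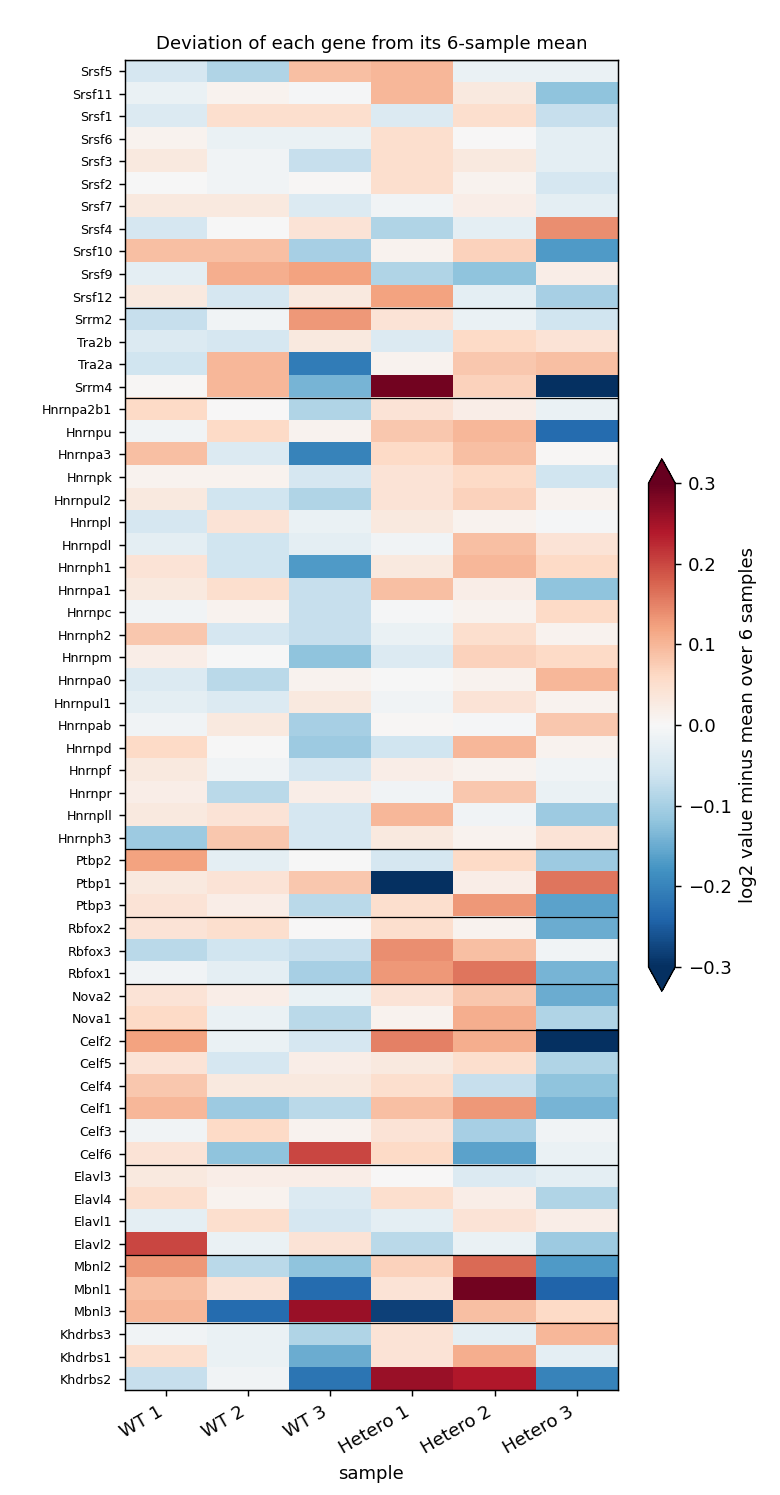
Deviation of each of the 59 genes (rows, by class) from its mean over the 6 samples (columns), in log2 units; blue is lower and red higher, and the colour scale ends at ±0.3. Blue cells gather in the columns of Hetero sample 3, lowest for 25 genes, and WT sample 3, lowest for 17, and no row apart from those of Rbfox3, Hnrnpdl and Elavl3 separates the groups.

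In Hetero sample 3 the deviation was related to transcript length, in values that may or may not already hold a length correction. Across the 59 genes Pearson's r with log2 length was -0.33 and Spearman's rho -0.37, where r lay between -0.02 and 0.23 in the other libraries. These are descriptions over genes of 1 library, and genes are not independent replicates. The 29 genes with a transcript above 3116 bases had a mean deviation of -0.084 in this library and the 30 others -0.014. Celf2 and Khdrbs2, with shorter transcripts, were low there too. Leaving this library out raised the number of the 59 genes with a fitted value above 0 from 37 to 47, and the number with an unadjusted p under 0.05 from 1 to 3 (Rbfox1, Rbfox3 and Khdrbs2). Among all tested genes the share above 0 was then 50.2%, and the share with such a p was 5.22%, against 3.83% with all samples. Without WT sample 3 the count of the 59 above 0 was 31, and without Hetero sample 2 it was 30. The part of RNA quality or library preparation in this was not tested.

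**Figure D5:**
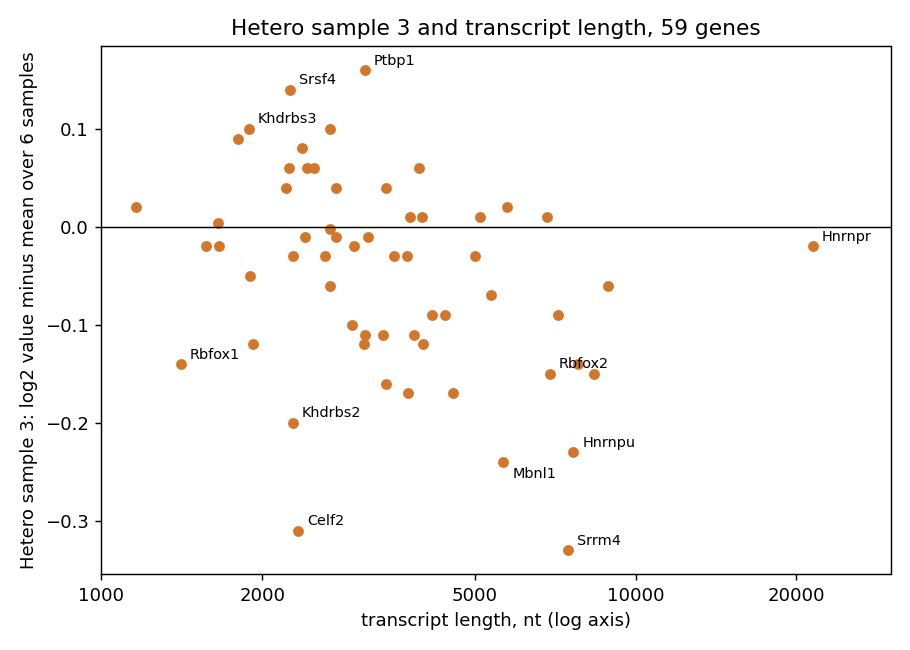
Transcript length (x axis, log scale) against the log2 deviation of Hetero sample 3 from the mean over the 6 samples (y axis) for the 59 genes, each a point. Genes above 3116 bases had a mean of -0.084 and shorter ones -0.014, with Celf2 and Khdrbs2 as low values among the shorter transcripts.

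Other genes of the splicing pathway gave the same count at the threshold: 0 of 114 tested genes in 6 lists had a limma adjusted p below 0.05. Before adjustment 2 genes had a p below 0.05, both higher in Hetero, against the background of 3.83%. Eftud2, the GTPase of the U5 particle, averaged 2821 ± 83.1 in WT against 3147 ± 121 (SD, n = 3) for Hetero, and the log2 change was 0.16 ± 0.06 (SE). Snrpa1, a U2 particle protein, averaged 394 ± 29.4 in WT against 468 ± 36.8 (SD, n = 3) for Hetero, and the log2 change was 0.25 ± 0.10 (SE). The groups of both genes did not overlap, and both adjusted p values in limma were 1. In all, 7 of the 114 genes had groups that did not overlap, where 8.72% of all tested genes did.

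Fitted values above 0 are counted by list, beside 49.1% of all tested genes. How far these counts rest on single libraries was not tested. The tri-snRNP, catalytic core and helicase genes had 19 of 22 fitted values above 0 with a median of 0.05. Splice site recognition genes had 16 of 23 with a median of 0.03, and Sm protein genes 6 of 8 with a median of 0.03. The kinases that phosphorylate SR proteins had 8 of 9 above 0 with a median of 0.05; the smallest p was that of Clk1, at 2697 ± 45.4 in WT against 2935 ± 127 (SD, n = 3) for Hetero, without overlap and with a limma unadjusted p of 0.057. Among other splicing regulators 21 of 42 tested genes lay above 0, with Srrm3, the paralog of Srrm4, at -0.13 ± 0.07 (SE). Nonsense-mediated decay genes had 4 of 10 above 0 with a median of -0.03, with Upf2 at 0.10 ± 0.08 (SE), and in the Sm list Snrpn, the neuronal form of SmB, differed by -0.07 ± 0.05 (SE).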

How the data were processed

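The signal the authors deposited is a gene-level count they had already scaled between samples, as its values show: they are not whole numbers, and the columns have similar totals. Groups follow the sample titles. The submitters' processing notes list GRCm38 as the build, and among tools DESeq2 (1.19.11), Salmon (0.11.2) and R (3.6.0), with no step attached. No source used here gives the annotation or the scaling formula. In each library 1 step divided 15.3% to 27.9% of values under 60 into whole multiples (within 0.02), so whole reads were not recovered and no count test was run. Identifiers were matched to GENCODE M21 (17875 matched, 14 did not). For 14969 genes with a mean of at least 10, a linear model of log2(value + 1) was fitted (limma 3.58.1, R 4.3.3; trend, robust, two-sided, Benjamini-Hochberg adjustment over all tested genes), so log2 changes understate those of low genes. The procedure was tested on simulated data. The simulated noise was independent between genes with the same SD for each, without library effects, so library differences as described above are not covered. Values in every sample are given for the 2 genes with the smallest p and the 1 with the highest level per length of each class, genes with an unadjusted p under 0.05 or groups that did not overlap, and Rbfox1, Rbfox2, Rbfox3, Nova1, Nova2, Ptbp1, Ptbp2 and Srrm4. For each other list it was up to 3 genes with p under 0.05, otherwise the 1 with the smallest p. Srsf2 and Hnrnpu were added after their values were seen. The genes and lists were chosen with earlier results of these data known. Levels per kilobase used the longest APPRIS principal transcript. Alternatives covered scaling, filter, pseudocount, eBayes options, a replicate block, a residual component and each sample left out.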

Additional observations from a re-analysis of the deposited data

How the results depend on the processing

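Across the alternatives run, 0 of the 59 genes passed limma's adjusted threshold of 0.05, also at 0.1, and the smallest adjusted p among them was 0.62 (leading residual component as a covariate). Over all tested genes the count called was 0, and 2 with a replicate block or with the residual component (Cyfip2 and Jun in each); leaving out 1 sample gave 0 to 1 (Rpl15-ps3 without WT sample 1, Gm10240 without Hetero sample 2). Same-numbered samples did not deviate together in every pair (r of -0.005, 0.004 and 0.227), so the numbers were not taken as pairs. Samples of unlike number had r of -0.184 to 0.181. Summed markers of oligodendrocytes, their precursors, astrocytes and microglia rose from sample 1 to 3 in both groups, and the other marker lists did not. The labels do not say whether the numbers stand for pairs. The median log2 change of the 59 ranged from 0.0004 to 0.041 when 1 sample was left out and stayed within the spread between samples under the other settings. The number of the 59 at an unadjusted p under 0.05 was 1, and 0 without trend and robust fitting, 4 with the residual component (Elavl2, Hnrnpa3, Hnrnph1 and Rbfox3) and 0 to 3 with 1 sample left out. Of all tested genes, 3.83% had such a p in the main fit, 6.01% with the residual component and 2.82% to 5.22% with 1 sample left out. Of the 26 genes chosen by the naming rule, 12 changed sign when 1 sample was left out, and 0 of the 26 did under the other settings. Hnrnpu (-0.10 to 0.07) and Srsf2 (-0.02 to 0.03), added later, changed sign too. The lowest and highest log2 changes were Celf2 -0.12 to 0.11, Srsf5 -0.0031 to 0.09, Hnrnpa2b1 -0.02 to 0.06, Mbnl1 -0.07 to 0.20, Mbnl2 -0.03 to 0.14, Nova1 -0.03 to 0.08, Srrm2 -0.07 to 0.03, Srrm4 -0.12 to 0.19, Ptbp1 -0.21 to 0.04, Nova2 -0.07 to 0.04, Rbfox2 -0.10 to 0.0009 and Srsf10 -0.12 to 0.01. The genes that kept their sign ran over Celf4 -0.14 to -0.06, Celf6 -0.16 to -0.0018, Elavl2 -0.19 to -0.08, Elavl3 -0.06 to -0.03, Hnrnpdl 0.06 to 0.11, Hnrnph1 0.07 to 0.18, Khdrbs2 0.12 to 0.35, Khdrbs3 0.04 to 0.11, Ptbp2 -0.11 to -0.01, Rbfox1 0.04 to 0.19, Rbfox3 0.11 to 0.19, Srsf9 -0.18 to -0.10, Tra2a 0.04 to 0.20 and Tra2b 0.02 to 0.07. For the ratios that changed sign, the log2 differences were Mbnl2 to Mbnl1 -0.08 to 0.04, Tra2a to Tra2b -0.02 to 0.17, Ptbp2 to Ptbp1 -0.09 to 0.19, Rbfox3 to Rbfox1 -0.0015 to 0.10 and Hnrnpa1 to Hnrnpa2b1 -0.06 to 0.01. The others ran over Elavl4 to Elavl3 0.01 to 0.07, Khdrbs2 to Khdrbs3 0.02 to 0.31, Nova2 to Nova1 -0.08 to -0.03, Rbfox1 to Rbfox2 0.11 to 0.19 and Srsf1 to Srsf9 0.03 to 0.16. The cause was not tested. With 3 samples a group, a difference whose interval holds 0 could not be told from no change, even before adjustment. Larger differences could also miss the adjusted threshold, as that of Cyfip2 did in the main fit (log2 change -0.57, limma adjusted p 0.31).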
